A study of Homo sapiens with 12 samples.

Results

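The 40 genes described here are 25 genes of glycolysis, which cover glucose uptake, the enzymes that break glucose down to pyruvate and lactate, and the regulators of that flux, and 15 genes of the cellular response to low oxygen. A gene was included by its symbol, and its probes were those that the platform annotation names for that symbol. Named probes were found for 37 of the 40 genes, among 18852 genes named on the array, and 36 were bright enough to be tested, 23 of glycolysis and 13 of the hypoxia response. CA9, SLC16A1 and SLC16A3 had no probe in the annotation used here and are not analysed here. EGLN3, a prolyl hydroxylase of the oxygen sensor, had 1 probe, which was above the threshold for dim probes on 1 of 12 arrays, and it was not tested. All the other 36 genes were above that threshold on 12 of 12 arrays. Some were close to it. The mean signal was 1.25 times the mean threshold for PFKM, 1.29 for PDK1, 1.48 for ANGPTL4, 1.63 for MXI1, 1.67 for HK2 and 1.76 for ADM.

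HDLM-2 is an established human Hodgkin lymphoma cell line. It was cultured for 24 h with 10 µM perifosine plus 5 µM sorafenib (the combination), with 5 µM sorafenib, with 10 µM perifosine, or with neither drug (the control), and each of the 4 groups was measured on 3 Illumina bead arrays, lettered A, B and C. Perifosine is an alkylphospholipid that inhibits AKT signalling, and sorafenib inhibits RAF kinases and receptor tyrosine kinases such as the VEGF receptors. All groups were grown in RPMI medium in an atmosphere of air with added CO2, so no group had been placed under low oxygen, and no vehicle is named for the control. The labels do not say whether the 3 arrays of a group stand for separate cultures. The p-values therefore rest on the spread among these arrays, part or all of which may be technical. All groups are of 1 cell line, and in vivo samples are not analysed here.

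Glycolysis turns glucose into pyruvate. Glucose transporters bring it into the cell, hexokinases trap it as glucose 6-phosphate, phosphofructokinase commits it to breakdown, and lactate dehydrogenase turns the pyruvate into lactate. In low oxygen the prolyl hydroxylases that mark HIF-1 alpha and HIF-2 alpha for destruction are less active, and the stabilised proteins, paired with ARNT, bind the core motif ACGTG or GCGTG near their target genes. Those targets include most glycolytic enzymes as well as genes for blood vessel growth, mitophagy, collagen modification and histone demethylation. Hodgkin lymphoma takes up glucose strongly, which is why it is imaged with a labelled glucose analogue.

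The promoters of the 3 genes that changed with sorafenib, P4HA2, ANKRD37 and KDM3A, are shown together with that of P4HA1, the sister gene of P4HA2, and that of LDHA, a classic HIF target. Each covers 250 bases before to 50 after the gene's start in the RefSeq promoter table of GRCh38.p14, written 5′ to 3′ on the gene's strand. The positions are chr5:132227042-132227341 on the minus strand for P4HA2, chr4:185396591-185396890 on the plus strand for ANKRD37, chr2:86441121-86441420 on the plus strand for KDM3A, chr10:73096817-73097116 on the minus strand for P4HA1 and chr11:18394313-18394612 on the plus strand for LDHA. For KDM3A and LDHA the first of 2 listed starts was taken. Capitals mark ACGTG and GCGTG on either strand (CACGT and CACGC when they lie on the other strand).
P4HA2: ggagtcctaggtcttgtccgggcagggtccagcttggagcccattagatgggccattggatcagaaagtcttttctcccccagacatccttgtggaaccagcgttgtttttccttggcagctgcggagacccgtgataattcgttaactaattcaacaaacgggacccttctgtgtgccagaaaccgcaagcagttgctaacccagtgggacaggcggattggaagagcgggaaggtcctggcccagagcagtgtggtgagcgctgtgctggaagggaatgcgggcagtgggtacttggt
ANKRD37: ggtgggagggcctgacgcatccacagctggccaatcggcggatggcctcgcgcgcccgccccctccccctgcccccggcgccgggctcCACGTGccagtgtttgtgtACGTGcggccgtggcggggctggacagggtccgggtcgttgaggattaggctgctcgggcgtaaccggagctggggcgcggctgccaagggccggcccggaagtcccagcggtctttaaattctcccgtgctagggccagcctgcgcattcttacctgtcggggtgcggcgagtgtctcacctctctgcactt
KDM3A: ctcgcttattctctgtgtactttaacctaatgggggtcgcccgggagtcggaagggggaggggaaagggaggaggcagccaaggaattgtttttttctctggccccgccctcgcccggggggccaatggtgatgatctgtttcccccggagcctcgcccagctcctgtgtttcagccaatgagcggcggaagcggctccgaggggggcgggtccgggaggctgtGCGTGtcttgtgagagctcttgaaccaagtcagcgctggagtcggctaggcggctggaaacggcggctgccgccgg
P4HA1: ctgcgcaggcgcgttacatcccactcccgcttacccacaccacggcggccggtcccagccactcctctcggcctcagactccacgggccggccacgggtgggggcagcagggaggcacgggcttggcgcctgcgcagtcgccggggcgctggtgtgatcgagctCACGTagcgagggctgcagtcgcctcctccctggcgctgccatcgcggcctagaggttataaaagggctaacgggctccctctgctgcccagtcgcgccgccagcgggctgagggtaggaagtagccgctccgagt
LDHA: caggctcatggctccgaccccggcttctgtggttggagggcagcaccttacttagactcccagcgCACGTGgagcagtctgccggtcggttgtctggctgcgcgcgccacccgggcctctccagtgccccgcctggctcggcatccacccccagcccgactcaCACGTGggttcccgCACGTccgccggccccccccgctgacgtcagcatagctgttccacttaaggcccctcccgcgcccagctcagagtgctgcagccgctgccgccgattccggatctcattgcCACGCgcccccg

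The P4HA2 window held neither motif, as did 51.6% of the 35116 promoters in the table. The ANKRD37 window held 3 matches to ACGTG, 2 of which are the strands of 1 palindrome, CACGTG, and 1.98% of all promoters held 3 or more. The LDHA window shown held 5 such matches, a number reached or passed by 0.251% of promoters, and they included 2 CACGTG palindromes, a sequence found in 7.26% of promoters. The window of the other LDHA start held 0 matches to ACGTG. KDM3A held 1 GCGTG, a motif present in 36.5% of promoters, and P4HA1 held 1 ACGTG, present in 21.4%. Promoters were listed for 35 of the 40 genes, 23 of glycolysis and 12 of the hypoxia response. These include SLC16A3, CA9 and EGLN3, which have no expression test here, and leave out SLC2A3, SLC16A1, BNIP3L, VEGFA and NDRG1. At least 1 listed promoter with ACGTG was found for 15 of these 23 glycolytic genes and 7 of these 12 hypoxia genes, against 24.9% of all genes in the table. For GCGTG it was 16 of 23 and 5 of 12, against 40.6% of all genes, so the share of the hypoxia genes with GCGTG was near that of all genes. A gene with more listed starts has more chances of a match, and these shares do not allow for that. Counted by single promoter, ACGTG was in 40% of the 65 listed for the members, against 21.4% of all promoters. GCGTG was in 41.5% of the 65, against 36.5%. A match describes the letters of the window and shows no binding, and its absence says only that the letters are not in these 300 bases.

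The values are the authors' deposited bead intensities, called signal here. The median signal of an array was 216.4 to 216.6, and 21916 to 22080 of 48803 probes were above the threshold for dim probes on each. Fold changes and tests come from limma on log2 values over 13606 genes, with Benjamini-Hochberg adjustment over all of them within a comparison, and a gene was called at an adjusted p below 0.05. Errors of log2 changes are standard errors. Of the 7 markers of Hodgkin cells looked at, 5 (TNFRSF8, FUT4, IRF4, CCL17 and TRAF1) were above the threshold on all arrays. Of the markers of other cell types, those above it on all arrays were 1 of 5 listed for B cells, 0 of 5 for T cells, 3 of 5 for myeloid cells (CSF1R, ITGAM and CD68), 0 of 5 for fibroblasts and 1 of 5 for endothelium (PECAM1). Above it on no array were 1 of the 7 Hodgkin markers, 1 marker of B cells, 1 of T cells (TRAT1), 1 of fibroblasts and 2 of endothelium (VWF and CDH5). The summed signal of the Hodgkin markers was 45589 to 52222 in the combination and 45127 to 51528 with sorafenib. It was 31260 to 36256 with perifosine and 35127 to 41473 in the control, so the sum moved with sorafenib. The markers did not move alike. With sorafenib over both backgrounds 2 of the 5 tested were called as higher, against 2.49% of all genes, and 3 were not called. Their log2 changes ranged from −0.28 to 0.54. The part of the markers in the results was not tested. The array of perifosine B and that of sorafenib C stood apart. Their deviations from their group means correlated at 0.387 over all genes, against at most 0.252 for any other pair of arrays of different groups, and limma's array weights for them were 0.371 and 0.471, against 0.816 to 2.32 for the others.

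Of the hypoxia genes, P4HA2 was higher and ANKRD37 and KDM3A were lower on all arrays with sorafenib than on any without it. P4HA2 was called in each comparison of cells with sorafenib against cells without it. ANKRD37 was called over both backgrounds and in the combination against the control, and KDM3A over both backgrounds only. None of the 23 glycolytic genes was called in any comparison. With the 6 arrays that had sorafenib set against the 6 that did not, each within its own perifosine background, 1 of 13 hypoxia genes rose and 2 fell. In that comparison 3.65% of all genes were called, 2.49% higher and 1.15% lower. Sorafenib against the control called 1 hypoxia gene as higher, with 0.816% of all genes called, 0.544% higher and 0.272% lower. The combination against the control called 1 as higher and 1 as lower, against 0.625% of all genes, 0.47% higher and 0.154% lower. Perifosine against the control called 0 of 36 members and 0 of 13606 genes in limma, where 546 genes (4.01%) had an unadjusted p below 0.05. In bulk samples such as these, a change in how many cells carry a transcript and a change of its amount per cell cannot be told apart.

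P4HA2 encodes the catalytic subunit of a collagen prolyl 4-hydroxylase and is induced by HIF-1 in low oxygen. Its signal was 1714, 1917 and 1989 in the combination, 1926, 2112 and 1749 with sorafenib, 1233, 1149 and 1298 with perifosine, and 1175, 1114 and 1059 in the control. All 6 arrays with sorafenib lay above all 6 without it, and the highest array without sorafenib, at 1298, was well short of the lowest with it, at 1714. In log2 units after normalization the groups averaged 10.77 ± 0.12 in the combination, 10.82 ± 0.15 with sorafenib, 10.11 ± 0.10 with perifosine and 9.96 ± 0.08 in the control (SD, n = 3 each). Over both backgrounds the log2 change with sorafenib was 0.76 ± 0.08, a 1.69-fold rise (limma adjusted p = 0.000228). It was 0.86 ± 0.11 for sorafenib against the control (limma adjusted p = 0.00347) and 0.81 ± 0.11 for the combination against the control (limma adjusted p = 0.00479).

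P4HA2 was also higher where sorafenib was set against perifosine-treated cells. The log2 change was 0.66 ± 0.11 for the combination against perifosine (limma adjusted p = 0.0178, with 0.706% of all genes called, 0.544% higher and 0.162% lower) and 0.71 ± 0.11 for sorafenib against perifosine (limma adjusted p = 0.0160, with 0.441% of all genes called, 0.331% higher and 0.11% lower). Perifosine against the control gave 0.15 ± 0.11, which was not called (limma adjusted p = 0.990). The interaction of the drugs on P4HA2 was −0.20 ± 0.16 on the log2 scale and was not called either (limma adjusted p = 0.758). The calls of P4HA2 over both backgrounds, of sorafenib against the control and of the combination against the control held when any 1 of the 12 arrays was left out. The call of the combination against perifosine was lost without perifosine A, perifosine B, combination B or combination C, and that of sorafenib against perifosine without perifosine A, perifosine B, sorafenib A or sorafenib B. When the mean of its 3 passing probes stood in for the brightest one, sorafenib against the control gave 0.44 (limma adjusted p = 0.155) and the combination against the control gave 0.51 (limma adjusted p = 0.136), and neither was called. The 3 probes did not move alike. The brightest gave 0.76 over both backgrounds, the next, with a mean signal of 677, gave 0.58, and the dimmest, with a mean signal of 240 and above the threshold on 10 of 12 arrays, gave 0.06.

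ANKRD37, a small ankyrin-repeat protein whose transcript is a well-known HIF-1 target, went the other way. Its signal was 2367, 2108 and 2083 in the combination, 2307, 2327 and 2449 with sorafenib, 3072, 3406 and 2732 with perifosine, and 3141, 3111 and 3351 in the control. Every array with sorafenib lay below every array without it, and the lowest values were in the combination. Over both backgrounds the log2 change was −0.48 ± 0.08, 1.40-fold lower with sorafenib (limma adjusted p = 0.00465), and this call held when any 1 array was left out. Against the control, the combination gave −0.58 ± 0.11 (limma adjusted p = 0.0314) and sorafenib alone gave −0.46 ± 0.11 (limma adjusted p = 0.0778). The call of the combination against the control was lost in 9 of the 12 leave-one-out fits, those without any of the 3 control, the 3 combination, perifosine A, sorafenib A or sorafenib B arrays, with adjusted p up to 0.164. Perifosine alone gave −0.07 on the log2 scale and was not called (limma adjusted p = 0.990). The combination against perifosine gave −0.51 for ANKRD37 and was not called. ANKRD37 was measured by 1 probe.

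KDM3A, also called JMJD1A, removes methyl groups from lysine 9 of histone H3 and is itself induced by HIF-1. Its signal was 943, 1140 and 1112 in the combination, 1130, 940 and 1154 with sorafenib, 1497, 1473 and 1352 with perifosine, and 1386, 1418 and 1225 in the control. The groups with and without sorafenib did not overlap, although the gap between the highest array with sorafenib, at 1154, and the lowest without it, at 1225, was narrow. The log2 change over both backgrounds was −0.42 ± 0.09, 1.34-fold lower with sorafenib (limma adjusted p = 0.0214). This call was lost in 5 of the 12 leave-one-out fits, those without control A, control B, perifosine A, sorafenib B or combination A, where the adjusted p reached up to 0.0598. Neither single comparison against the control called KDM3A, at −0.38 for the combination (limma adjusted p = 0.252) and −0.36 for sorafenib (limma adjusted p = 0.205). The combination against perifosine gave −0.49 for KDM3A and was not called either. KDM3A had 1 probe.

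**Figure D1:**
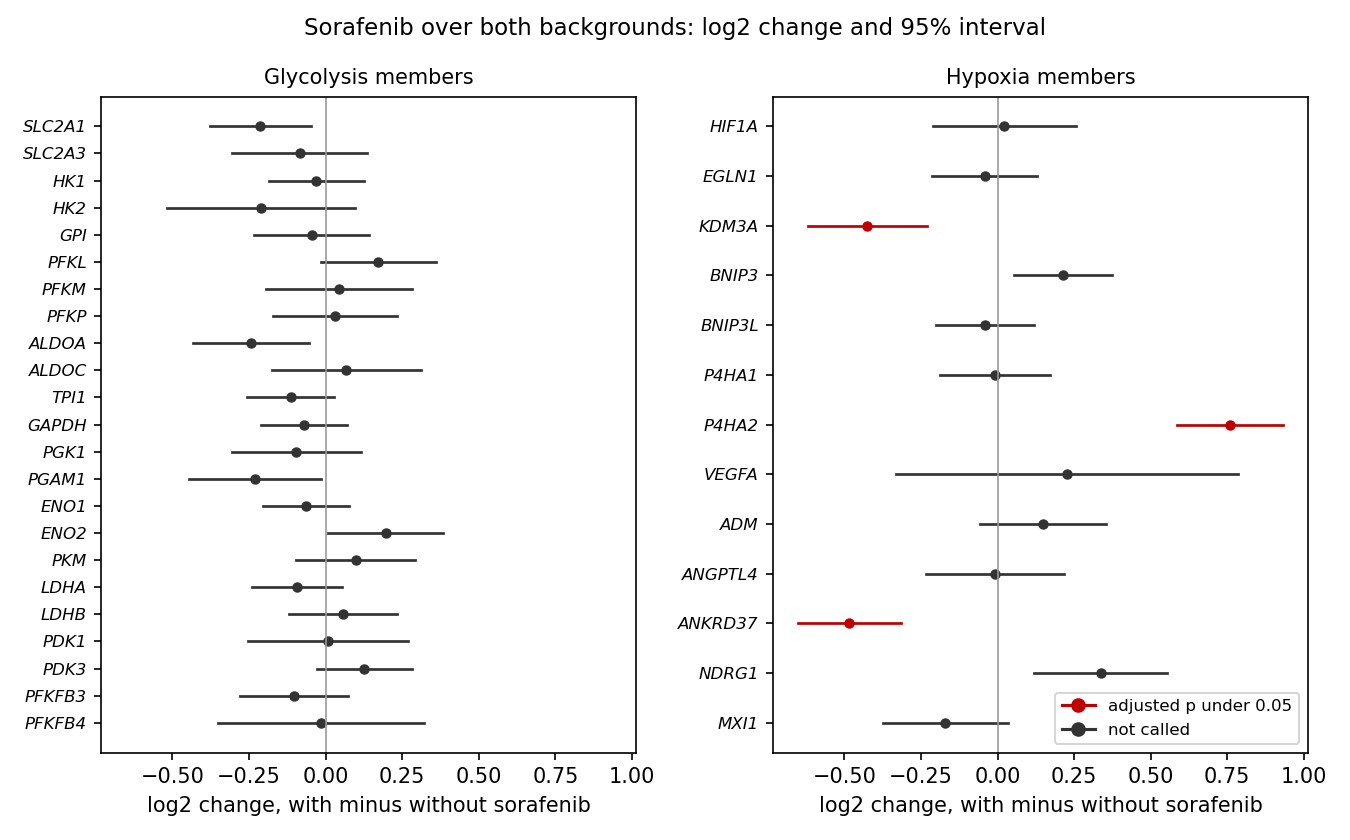
Log2 change with sorafenib over both backgrounds (points) and its 95% interval (lines) for the 23 tested glycolytic genes on the left and the 13 tested hypoxia genes on the right, with genes called by limma in red. P4HA2 at 0.76, ANKRD37 at −0.48 and KDM3A at −0.42 were called, and no glycolytic gene was.

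The other 10 hypoxia genes were not called in any comparison. NDRG1, a stress-induced protein that is a common marker of hypoxia, had signals of 780, 632 and 665 in the combination, 719, 577 and 630 with sorafenib, 556, 491 and 603 with perifosine, and 546, 590 and 526 in the control. The arrays with and without sorafenib overlapped, and the log2 change over both backgrounds was 0.34 ± 0.10 (95% interval 0.12 to 0.55, limma adjusted p = 0.0888). BNIP3, a receptor for mitophagy, had 4486, 4744 and 5144 in the combination, 4607, 5162 and 4701 with sorafenib, 3858, 4404 and 4431 with perifosine, and 4224, 4054 and 4009 in the control. Its arrays with sorafenib all lay above those without, by a small margin, and the change of 0.21 ± 0.07 was not called (limma adjusted p = 0.139). The share of all genes whose arrays separate in this way was not counted. Such a separation is therefore only a description, for BNIP3 and for every other gene where it is given. Its relative BNIP3L gave −0.04 on the log2 scale. The F test over the 4 groups, which called 131 genes (0.963%), called P4HA2 (limma adjusted p = 0.00243) and ANKRD37 (limma adjusted p = 0.0370) among the members.

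The transcript of the oxygen-regulated subunit itself, HIF1A, had a signal of 1470, 1359 and 1127 in the combination, 1305, 1244 and 1612 with sorafenib, 1368, 1460 and 1127 with perifosine, and 1466, 1276 and 1282 in the control. The 4 groups overlapped, and the log2 change with sorafenib over both backgrounds was 0.02 ± 0.11, with a 95% interval of −0.21 to 0.26. HIF-1 alpha is controlled mainly by the stability of the protein, which arrays do not measure. EGLN1, the main prolyl hydroxylase of the sensor, gave −0.04 in the same comparison. P4HA1, the sister of P4HA2, had 1936, 1810 and 1765 in the combination, 1771, 1998 and 1930 with sorafenib, 1792, 2285 and 1808 with perifosine, and 1796, 1860 and 1770 in the control. Its groups overlapped as well, and its change was −0.01 ± 0.08, with a 95% interval of −0.19 to 0.17, which does not reach the interval of P4HA2, 0.59 to 0.93. Among the secreted targets, the vasodilator peptide ADM gave 0.15 and the lipoprotein lipase inhibitor ANGPTL4 gave −0.01, and the MYC antagonist MXI1 gave −0.17 on the log2 scale, none of them called. As a group, 6 of the 13 hypoxia genes had a log2 change above 0 with sorafenib over both backgrounds, with a median of −0.01 and a range of −0.48 to 0.76.

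**Figure D2:**
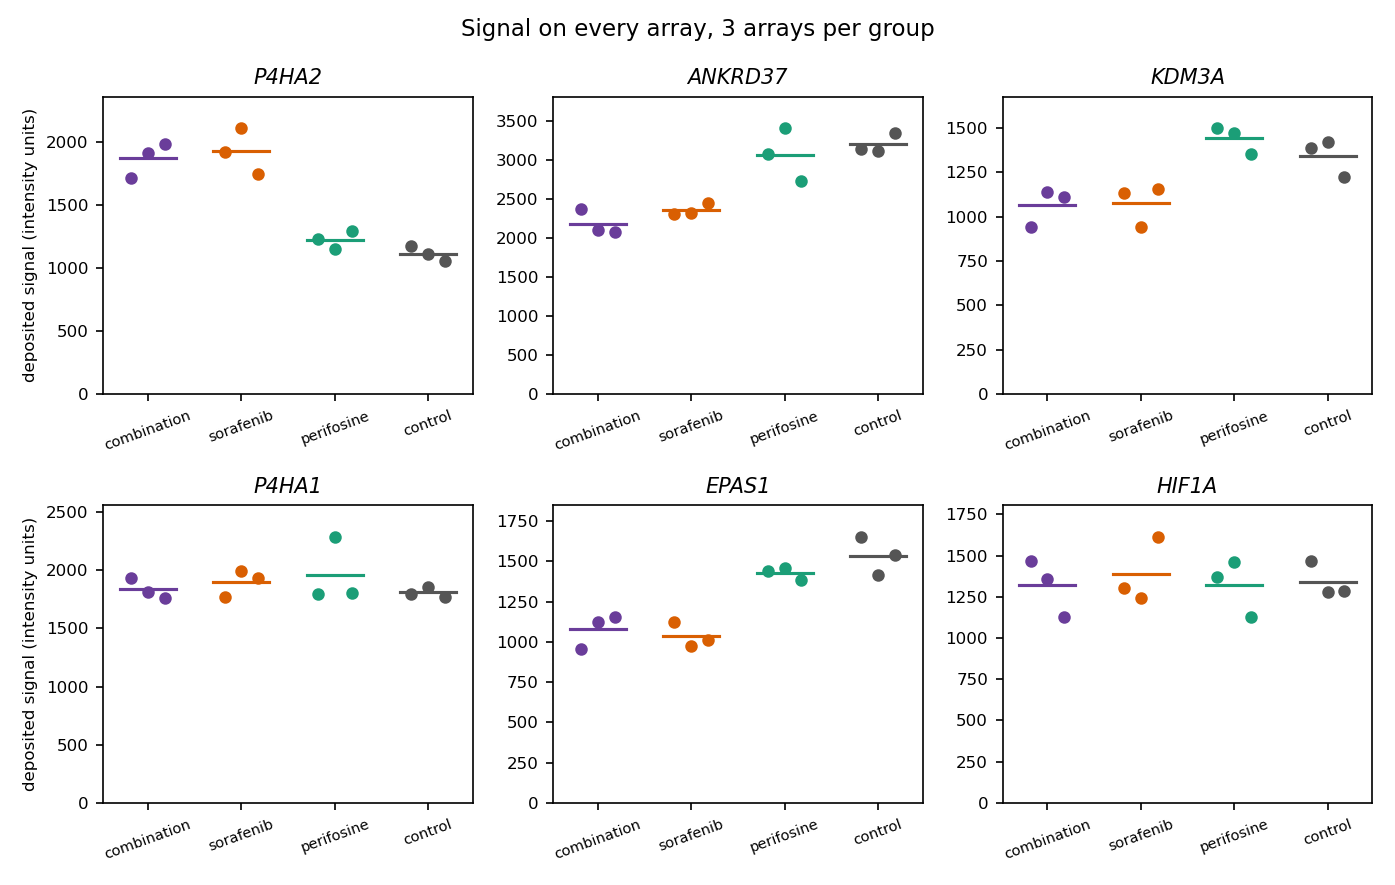
Deposited signal (intensity units, axes from 0) of P4HA2, ANKRD37, KDM3A, P4HA1, EPAS1 (the gene of HIF-2 alpha) and HIF1A on each of the 12 arrays, in the order combination, sorafenib, perifosine and control, with arrays A, B and C from left to right in each group and a line at the group mean. P4HA2 lies higher, and ANKRD37, KDM3A and EPAS1 lower, on every array with sorafenib than on any array without it, while the groups overlap for P4HA1 and HIF1A.

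Several glycolytic genes were among the brightest on the array, and none was called in any of the comparisons. For GAPDH, LDHA, ENO1 and TPI1 no more than 0.307% of probes were brighter, and their signals of up to 65012, against a highest value in the table of 70194, lie close to the top of the range. LDHA, which turns pyruvate into lactate, had 58319, 56097 and 55779 in the combination, 53970, 56485 and 62074 with sorafenib, 62341, 65012 and 60076 with perifosine, and 59917, 60292 and 57951 in the control, and the groups with and without sorafenib overlapped. Over both backgrounds sorafenib gave log2 changes between −0.24 and 0.20 for the 23 genes, with a median of −0.05 and 9 of 23 above 0, and no 95% interval of the probes used reached beyond a 1.43-fold change, the bound of HK2. The second HK2 probe, about as bright, gave a larger change, −0.44 ± 0.13, than the −0.21 ± 0.14 of the probe used. The second PGAM1 probe, with a mean signal of 8439, gave −0.31 ± 0.13, against −0.23 ± 0.10 for the probe used. Further probes of HK1, GAPDH, TPI1, PGK1 and PDK3 also gave changes larger in size than the probes used, such as 0.22 against −0.03 for HK1. Those of PFKFB3 and ALDOA gave smaller ones, such as −0.01 against −0.10 for PFKFB3. The other PKM probes, at 0.07 and 0.14, lay on either side of the one used, at 0.10. The bound therefore holds for the probes used only. The smallest limma adjusted p was 0.151. An unadjusted p below 0.05 was found for 4 of the 23, against 18% of all genes. Against the control, the medians of the 23 log2 changes were −0.05 for the combination, −0.05 for sorafenib and −0.003 for perifosine.

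By step, the lowest value at uptake was that of SLC2A1, the ubiquitous glucose transporter GLUT1. Its signal was 1156, 1234 and 1324 in the combination, 1194, 1246 and 1099 with sorafenib, 1251, 1257 and 1341 with perifosine, and 1394, 1609 and 1460 in the control. All 9 arrays with a drug lay below the 3 control arrays, and the share of all genes for which this holds was not counted. The change was −0.37 for sorafenib against the control (limma adjusted p = 0.130) and −0.21 ± 0.08 over both backgrounds (limma adjusted p = 0.151), neither of them called. The high-affinity transporter SLC2A3 (GLUT3) gave −0.09. For the hexokinases, which trap glucose, HK1 gave −0.03 and HK2 gave −0.21, and the isomerase GPI gave −0.05. The phosphofructokinase subunits PFKL, PFKM and PFKP gave 0.17, 0.04 and 0.03.

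Below that step, the aldolase ALDOA, which splits the 6-carbon sugar, had 11094, 13294 and 10460 in the combination, 12326, 12418 and 11912 with sorafenib, 13664, 12038 and 15168 with perifosine, and 13590, 14226 and 15899 in the control. Perifosine B lay within the range of the arrays with sorafenib, and the change was −0.24 ± 0.09 (limma adjusted p = 0.154). The mutase PGAM1 gave −0.23 ± 0.10 and the neuronal enolase ENO2 gave 0.20 ± 0.09, neither called. The second aldolase ALDOC gave 0.07 and TPI1, the triose isomerase, gave −0.11. GAPDH gave −0.07, the kinase PGK1 −0.10, ENO1 −0.06 and the pyruvate kinase PKM 0.10. LDHA and LDHB, the subunits of lactate dehydrogenase, gave −0.09 and 0.06. Of the regulators, the pyruvate dehydrogenase kinases PDK1 and PDK3 gave 0.01 and 0.13. PFKFB3 and PFKFB4, which set the level of an activator of phosphofructokinase, gave −0.10 and −0.01. All these changes are log2 changes with sorafenib over both backgrounds.

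**Figure D3:**
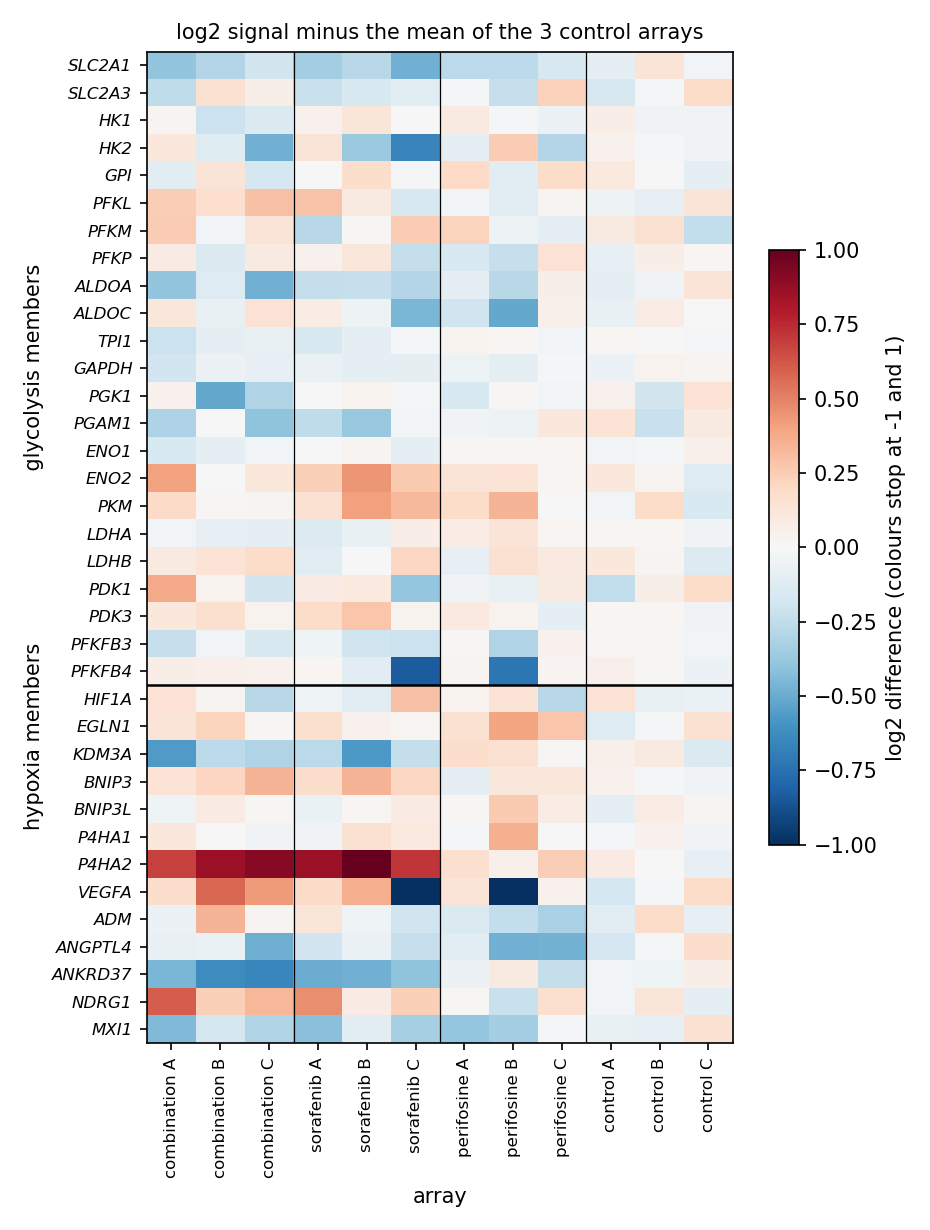
Log2 difference of each of the 36 tested genes on each of the 12 arrays from the mean of its 3 control arrays, with genes ordered by role and the combination, sorafenib, perifosine and control arrays from left to right. P4HA2 is raised and ANKRD37 and KDM3A are lowered on the arrays with sorafenib, and VEGFA, PFKFB4 and ALDOC are low on sorafenib C and perifosine B. Colours stop at 1 on either side of 0, and the lowest value was −1.22.

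Of the 36 genes, 5 had their lowest 2 values on exactly the 2 arrays that stood apart, perifosine B and sorafenib C. These were PFKL, PFKP, ALDOC, PFKFB4 and VEGFA, a share of 13.9%, against 9.49% of all genes. The same 2 arrays held the highest 2 values for 1 of the 36 (2.78%), against 7.28% of all genes. VEGFA, the vascular endothelial growth factor, had 514, 640 and 588 in the combination, 519, 568 and 269 with sorafenib, 500, 292 and 479 with perifosine, and 429, 467 and 515 in the control. Its array of sorafenib C, at 269, and that of perifosine B, at 292, were well below the lowest of the other 10, at 429. PFKFB4, a relative of PFKFB3, had 920, 912 and 907 in the combination, 898, 834 and 551 with sorafenib, 900, 583 and 899 with perifosine, and 913, 890 and 855 in the control. Here too the same arrays, at 551 and 583, fell short of a narrow range of 834 to 920 on the other 10.

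The brain-type aldolase ALDOC had 869, 778 and 886 in the combination, 850, 791 and 626 with sorafenib, 723, 608 and 837 with perifosine, and 778, 850 and 816 in the control, with the same 2 arrays lowest. Both arrays enter the interaction with a negative sign, so for genes picked because these arrays are lowest, leaving them out had to lower it, and the values are given as a description. For VEGFA the interaction was 0.90 ± 0.52 on the log2 scale with all arrays and 0.03 ± 0.20 without both. For PFKFB4 it was 0.58 ± 0.31 and, without both, 0.06 ± 0.14, and for ALDOC 0.42 ± 0.22 and, without both, 0.12 ± 0.17. For PFKL it was 0.20 ± 0.17 and, without both, 0.05 ± 0.16, and for PFKP 0.12 ± 0.19 and, without both, −0.06 ± 0.18. None of these was called, and the interaction called 0 of all 13606 genes in limma, where 1034 (7.60%) had an unadjusted p below 0.05. VEGFA in the combination against perifosine gave 0.68 ± 0.37, and 0.31 ± 0.14 without both arrays, and was called in neither fit. This value also had to fall, since VEGFA was picked partly because perifosine B was low.

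**Figure D4:**
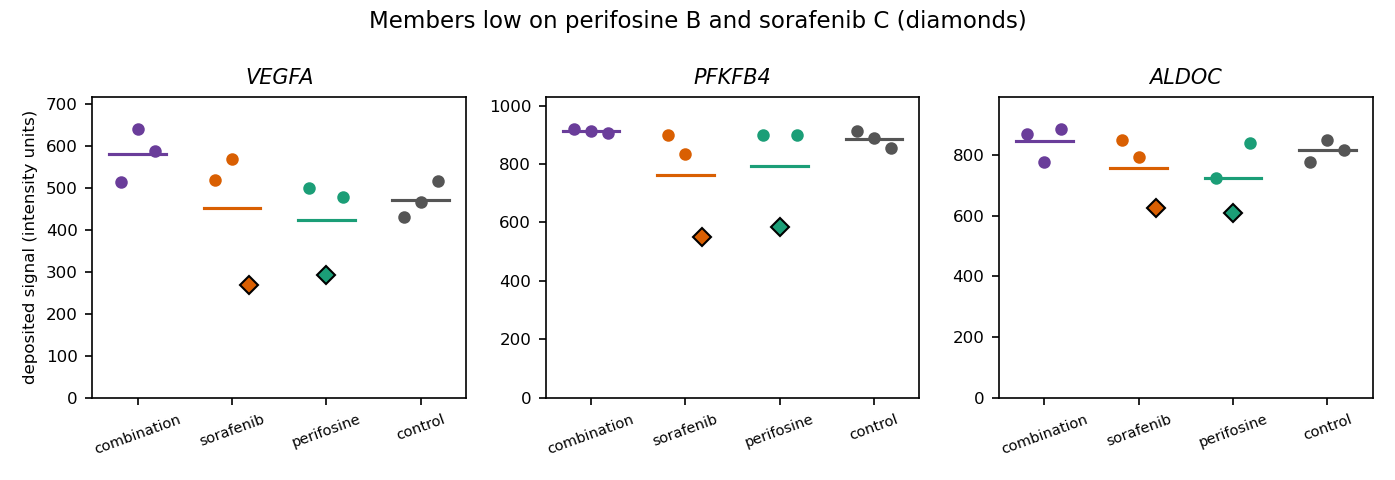
Deposited signal (intensity units, axes from 0) of VEGFA, PFKFB4 and ALDOC on each of the 12 arrays, in the order combination, sorafenib, perifosine and control, with a line at the group mean and diamonds for sorafenib C and perifosine B. In all 3 genes the diamonds are the lowest points, at 269 and 292 for VEGFA, 551 and 583 for PFKFB4 and 626 and 608 for ALDOC.

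Adding perifosine to sorafenib called 0 of the 36 genes. The combination against sorafenib called 0 of 13606 genes in limma, where 826 (6.07%) had an unadjusted p below 0.05, and perifosine over both backgrounds called 0, where 455 (3.34%) had one. With perifosine over both backgrounds the 95% intervals of the 23 glycolytic genes reached no further than a 1.32-fold change, and their median was −0.02. For the 13 hypoxia genes the intervals reached up to a 1.65-fold change, the bound of VEGFA, and the median was 0.03. These bounds hold for the probes used only, and they are the far ends of the intervals and not limits of detection.

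Of the tested members, 16 had more than 1 passing probe, and for 10 of them the probes gave the same sign with sorafenib over both backgrounds. The GAPDH probes gave −0.07, −0.17 and −0.09, and those of TPI1 gave −0.11 and −0.19. The HK2 probes had similar mean signals of 376 and 366. For the other 6 the signs were mixed. HK1 gave −0.03 and 0.22, and PDK3 gave 0.13 and −0.19, in probes of different brightness. Of the 4 probes of ALDOA, the brighter ones gave −0.24 and −0.15, and those with mean signals of 251 and 239 gave 0.06 and 0.02. The remaining 3 were HIF1A, ANGPTL4 and MXI1, and no direction can be given for any of the 6.

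Other genes of the same pathways were taken from lists of pathway members and are set against the 3.65% of all genes called with sorafenib over both backgrounds. Of 15 tested genes of the HIF machinery, EPAS1, which encodes HIF-2 alpha, fell with sorafenib over both backgrounds and the other 14 were not called. Its signal was 958, 1121 and 1157 in the combination, 1122, 976 and 1010 with sorafenib, 1442, 1461 and 1383 with perifosine, and 1651, 1417 and 1538 in the control. All 6 arrays with sorafenib lay below all 6 without it, with a log2 change of −0.54 ± 0.08 (limma adjusted p = 0.00290), and the call held when any 1 array was left out. Against the control the change was −0.56 for the combination (limma adjusted p = 0.0475) and −0.63 for sorafenib (limma adjusted p = 0.0253), and these calls were less stable. The first was lost in 11 of the 12 leave-one-out fits, all but that without perifosine B, and the second in 5, those without any control array, sorafenib B or sorafenib C.

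Among 21 tested genes of gluconeogenesis and of further glycolytic isoforms, PCK2, the mitochondrial phosphoenolpyruvate carboxykinase, rose and the other 20 were not called. Its signal was 4615, 4207 and 4462 in the combination, 4398, 4264 and 4045 with sorafenib, 3309, 2869 and 3182 with perifosine, and 2760, 3185 and 2793 in the control. Here too the arrays with and without sorafenib did not overlap, and the log2 change over both backgrounds was 0.54 ± 0.07 (limma adjusted p = 0.00149). Its other probes gave 0.51 and 0.35. The call over both backgrounds held when any 1 array was left out. Against the control the log2 change was 0.63 for the combination (limma adjusted p = 0.0144) and 0.56 for sorafenib (limma adjusted p = 0.0259). The first was lost without control A, control C, combination A or combination C, and the second without control A, control C or any sorafenib array. The second was also lost without a filter on dim probes (limma adjusted p = 0.0653) and with the mean of the gene's probes (limma adjusted p = 0.0600).

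Of 26 tested further hypoxia targets, 1 rose and 1 fell with sorafenib over both backgrounds. The carbonic anhydrase CA12 had 356, 378 and 351 in the combination, 376, 369 and 282 with sorafenib, 284, 248 and 302 with perifosine, and 296, 268 and 283 in the control. Sorafenib C lay among the arrays without the drug, and the log2 change was 0.53 ± 0.12 (limma adjusted p = 0.0348). The heme oxygenase HMOX1 had 1037, 1310 and 1253 in the combination, 1135, 1021 and 1185 with sorafenib, 1378, 1336 and 1748 with perifosine, and 1470, 1459 and 1468 in the control. Its groups did not overlap, with a log2 change of −0.39 ± 0.10 (limma adjusted p = 0.0436). Each of these calls was lost in 10 of the 12 leave-one-out fits, with adjusted p up to 0.0843 for CA12, which held without perifosine C or sorafenib C, and up to 0.104 for HMOX1, which held without perifosine B or combination B. None of the 9 tested genes of pyruvate entry into mitochondria, the 7 of the pentose phosphate pathway or the 7 housekeeping genes was called. The nearest to 0.05 among those of pyruvate entry had a limma adjusted p of 0.256. Of that list PDP1 gave 0.21 and MPC1 gave −0.19 on the log2 scale, and PDP1 was above the threshold on 8 of 12 arrays. The pentose phosphate enzymes H6PD and TKT gave 0.24 and −0.15 on the log2 scale.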

How the data were processed

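RNA of 12 HDLM-2 samples (4 groups, 3 arrays each) was labelled with biotin and hybridised to Illumina bead arrays, per the labels. The values are the authors' deposited intensity values on a linear scale, for 48803 probes. The submitters' processing notes name BeadStudio, with the normalization not given in the sources used here. The deposited arrays had nearly the same distribution, since values of equal rank ranged over 0.0519% of their mean at the median rank, and the lowest value was 109.7. A second deposited table, whose 24 columns match no sample label, was not used.

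Background was corrected with normexp without control probes (offset 16), followed by quantile normalization and log2 in limma 3.58.1 (R 4.3.3). The detection p values planned for the filter could not be matched to samples, so a probe was kept if it exceeded about 225, the upper 5% point of the dim probes, on at least 3 of 12 arrays, which kept 25279. The annotation gave 1 symbol for 28098 probes, several for 13 and none for 20692. The RefSeq table of GRCh38.p14 held the Entrez identifier of 28059 named probes. Each of 13606 genes was represented by its brightest passing probe.

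A mean per group was fitted over all 12 arrays with lmFit and eBayes (13.1 degrees of freedom, median residual SD of 0.18), with Benjamini-Hochberg adjustment over all genes per contrast and calls at 0.05. All members could be named. Of the other lists of pathway members the called genes were named and, where none was called, the 2 with the largest change with sorafenib over both backgrounds. The members and lists were chosen with earlier results of these data known. The fit was tested on simulated data. The labels do not say whether the letters A, B and C pair the samples, and the fit did not pair them. Of 18 same-letter pairs of arrays, 2 had correlated deviations above 0.1 (range −0.239 to 0.205), which cannot exclude a pairing with so few arrays. The number of arrays limits the precision.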

Additional observations from a re-analysis of the deposited data

How the results depend on the processing

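No called value changed sign under any alternative. Counts of genes called moved as follows, given in the order of sorafenib against the control (111), then the combination against the control (85) and against perifosine (96), sorafenib against perifosine (60), sorafenib over both backgrounds (496) and the F test (131). Without background correction they were 251, 203, 247, 126, 815 and 287. With array weights they were 239, 208, 289, 142, 951 and 299. With probes above the threshold on all 12 arrays the counts that moved were 200, 171, 181 and 106, and 220 for the F test. Without a filter on dim probes, which tests more genes, they were 40, 55, 41, 35, 247 and 64. Without both arrays that stood apart, sorafenib against the control called 72, the combination against the control 135 and sorafenib against perifosine 26. An offset of 50 gave 168 for sorafenib against the control.

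With the letters as a replicate block, the counts were 48, 54, 45 and 30, and 63 for the F test. Members called with the block were 1 for the combination against the control and 0 for the combination and for sorafenib against perifosine. Whether the letters pair the samples is not known, and 3 of 12 arrays correlated best with an array of their own letter. Calls lost under the block are therefore given as losses. The log2 changes of P4HA2 under the block were 0.66 for the combination against perifosine (limma adjusted p = 0.0556) and 0.71 for sorafenib against perifosine (limma adjusted p = 0.0509).

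Leaving out 1 array gave 36 to 167 genes for sorafenib against the control (fewest without control C), 34 to 116 for the combination against the control and 24 to 100 for the combination against perifosine (both fewest without combination C). It gave 11 to 58 for sorafenib against perifosine (fewest without perifosine A), 270 to 503 over both backgrounds (fewest without control A) and 54 to 121 for the F test (fewest without combination C).

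Member counts in the same fits were 1 to 2 for the combination against the control and 0 to 1 for the combination and for sorafenib against perifosine. The adjusted p of P4HA2 reached up to 0.108 in the combination against perifosine and up to 0.0954 in sorafenib against perifosine. Under the other alternatives, members called with sorafenib against the control were 2 (P4HA2 and ANKRD37) without background correction, with array weights or with all 12 arrays above the threshold, and 0 with the mean of probes. For the combination against perifosine they were 3 (those and KDM3A) without background correction or with array weights, 2 with an offset of 50 or all 12 arrays above the threshold, and 0 with the mean of probes or without the filter. For the combination against the control 1 was called with the mean of probes or without the filter. For sorafenib against perifosine 0 were called with the mean of probes or without both arrays. Over both backgrounds KDM3A was lost without the filter, NDRG1 was called in addition without background correction and with all 12 arrays above the threshold, and BNIP3 with array weights. No glycolytic gene was called under these alternatives.

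Of the genes outside the members, the calls of PCK2 and EPAS1 with sorafenib over both backgrounds held under every alternative. Without the filter, calls were lost for EPAS1 with sorafenib (adjusted p = 0.0616) and the combination (0.116) against the control, for PCK2 in the combination against perifosine (0.104), and for CA12 (0.0756) and HMOX1 (0.0911) over both backgrounds. The mean of probes ended the calls of PCK2 in the combination against perifosine (0.0567) and of CA12 over both backgrounds (0.0571). Leaving out both arrays ended those of EPAS1 with sorafenib (0.0709) and the combination (0.0516) against the control and of PCK2 in the combination against perifosine (0.107). The replicate block ended all of these and that of PCK2 with sorafenib against the control (0.0664).

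The median log2 change of the 13 hypoxia genes lay near 0 and moved with the arrays left out, from −0.0337 to 0.0381 for perifosine against the control, −0.0359 to 0.0504 for sorafenib against the control and −0.0157 to 0.0861 for the combination against the control. It lay at −0.0290 to 0.120 for the combination against perifosine, −0.0421 to 0.0329 for the combination against sorafenib, −0.0806 to 0.114 for sorafenib against perifosine, −0.135 to 0.0303 for the interaction and −0.0377 to 0.0613 for sorafenib over both backgrounds. The glycolytic median for the interaction lay at −0.0174 to 0.0597. With array weights the hypoxia median was −0.00218 for the interaction and −0.0129 for perifosine over both backgrounds. Without both arrays it was 0.0845 for the combination against perifosine, 0.0306 for the interaction and −0.00708 for perifosine over both backgrounds. With the mean of probes it was 0.0609 for the combination against perifosine, 0.0486 for the combination against sorafenib and −0.0155 for sorafenib against perifosine, and without the filter 0.0134 for sorafenib against perifosine. Where no cause is given, the cause was not tested.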
